A study of Mus musculus with 4 samples.

Results

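RNA sequencing compared mouse zygotes that carry the label H3.3 MO inject with the control zygotes of the same experiment. Of the 55291 features in the count table, 8110 genes were measured, which means that they reached 10 CPM (counts scaled to the same library size, the unit of all levels below) in at least 1 of the 2 samples. The genes described below are the 3287 measured genes for which both injected libraries lay on the same side of both control libraries. The whole series held 4 samples: this MO pair, and a separate pair of zygotes labelled H3.3 S31A inject and H3.3 S31A con. That pair is called S31A injected and S31A control here. Each sample was a single GEO sample with 2 columns of counts, called libraries 1 and 2 here, and no source says whether these were separate pools of embryos or repeat preparations of the same RNA.

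MO is not written out in the labels; in work on embryos it commonly means morpholino, an antisense oligonucleotide. Nor do the sources give the sequence of the MO, what the control zygotes received, the mouse strain, the number of embryos or the hour of collection. The design text of the series speaks of a mouse model with HA-tagged H3.3B, and the sources used here do not say whether these zygotes carried the tag. With 1 sample in each group there was no replicate check and no test between groups. Results are therefore given as the level in each library and as the log2 ratio of the summed injected sample to the summed control sample, where a negative value means lower after injection.

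A zygote is the fertilised egg before its first division. Most of its RNA was made and stored by the growing oocyte, and the first transcripts from the embryo's own genome appear during a weak early wave called minor genome activation. The variant histone H3.3 is placed on chromatin outside DNA replication by chaperones such as HIRA and DAXX-ATRX. In the zygote, H3.3 stored by the mother is known to be placed on the sperm genome as protamines are removed. The comparison describes RNA levels of the zygotes labelled H3.3 MO inject, and no H3.3 protein was measured in it.

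H3.3 is encoded by H3f3a and H3f3b, and the 136-residue proteins translated from their coding sequences had 0 differences, while 95 of the 411 coding bases differed. H3f3a lies on the minus strand at chr1:180800832-180813943 and H3f3b on the minus strand at chr11:116021912-116027962 in mm10. Another feature, H3f3c at chr2:119665626-119666036, is a processed pseudogene in GENCODE M21 and was 99.0% identical to the H3f3a coding sequence, with 4 differing bases. The first 120 coding bases of each are shown to illustrate how the copies differ, and reads can also fall on the rest of each feature. They are from GENCODE M21 transcripts, 5′ to 3′. Capitals mark the 24 bases at which H3f3a and H3f3b differ from each other, and in H3f3c the 2 bases at which it differs from H3f3a.
H3f3a: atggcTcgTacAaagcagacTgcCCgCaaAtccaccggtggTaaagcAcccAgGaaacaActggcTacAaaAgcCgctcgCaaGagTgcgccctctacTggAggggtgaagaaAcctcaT
H3f3b: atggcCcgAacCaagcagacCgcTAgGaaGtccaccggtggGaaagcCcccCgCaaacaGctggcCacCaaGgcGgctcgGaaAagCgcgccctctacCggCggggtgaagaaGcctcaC
H3f3c: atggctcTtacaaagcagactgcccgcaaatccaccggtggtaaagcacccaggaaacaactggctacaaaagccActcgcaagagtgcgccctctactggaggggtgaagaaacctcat

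Both H3.3 genes were far lower after injection. H3f3b was at 2199 and 1550 CPM in the 2 control libraries and at 2.30 and 10.5 CPM in the 2 injected libraries. The groups were 7.18 apart in log2 CPM at their nearest libraries, and the summed sample was 324-fold lower (log2 ratio -8.34, 95% interval of counting error -8.63 to -8.11). It was -7.54 without injected library 1 and -9.69 without injected library 2. H3f3a was at 462 and 586 CPM in the control libraries and at 8.04 and 52.4 CPM in the injected libraries. Its summed ratio was 18.6-fold lower (log2 ratio -4.22, interval -4.35 to -4.10), with -3.31 without injected library 1 and -6.00 without injected library 2. H3f3c was at 198 and 238 CPM against 9.57 and 31.9 CPM (log2 ratio -3.45, with -2.77 without injected library 1 and -4.50 without injected library 2). Because H3f3c differs from H3f3a at so few bases, and how reads with more than 1 match were counted is not given, these features may hold shared reads. In bulk RNA, fewer zygotes that hold a transcript and less of it per zygote cannot be told apart. In the S31A experiment, set beside it as a separate pair of samples, H3f3b was at 1453 and 1819 CPM in control and 2438 and 2749 CPM in injected libraries, and H3f3a was at 657 and 563 CPM against 484 and 648 CPM.

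A gene is called higher or lower below where the injected sample differed by 2-fold or more and both of its libraries lay on that side of both controls. This held for 591 measured genes (7.29%) in the higher and 842 (10.4%) in the lower direction. At any size of ratio, 1559 genes (19.2%) had both injected libraries above both controls and 1728 (21.3%) had both below. These shares are the background for every count below. Scaling by total counts alone gave 458 higher and 1012 lower. Of the called genes, 123 of the 591 higher and 110 of the 842 lower reached 100 CPM in the higher of the 2 samples, and 49 and 73 differed by 8-fold or more. Calls in both directions were more frequent at low levels. At 10 to 20 CPM 15.7% of genes were called lower and 9.25% higher, and at 200 CPM or more 3.29% and 4.73%.

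**Figure D1:**
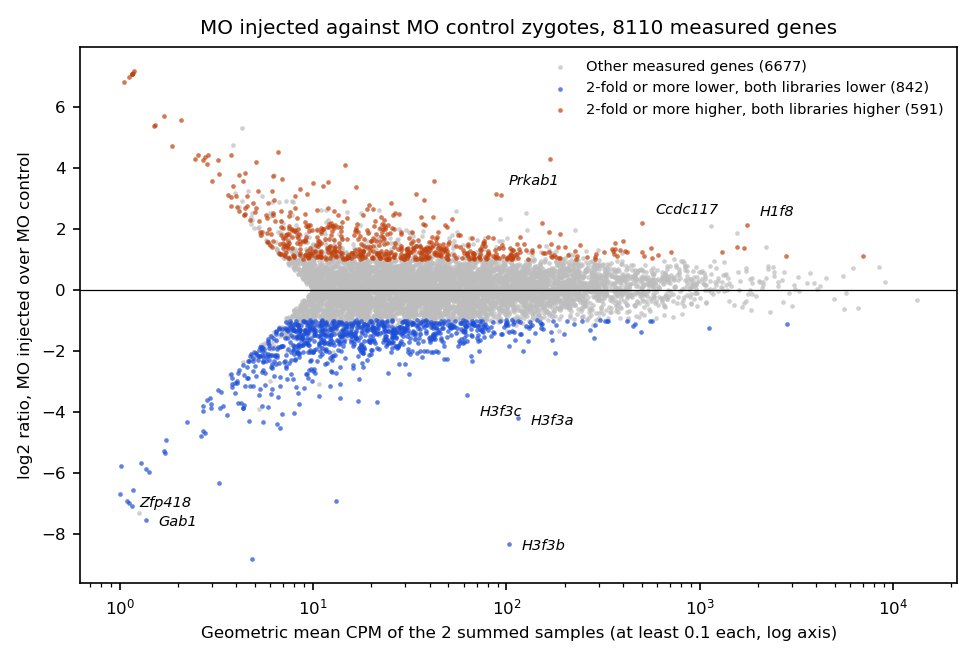
Each point is 1 of 8110 measured genes; the x axis is the geometric mean CPM of the MO control and MO injected samples (log axis) and the y axis the log2 ratio of injected over control. The 591 genes called higher are orange and the 842 called lower are blue, and H3f3b at -8.34 and H3f3a at -4.22 lie far below the other genes of their level.

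Of the 4 MO libraries, injected library 1 was the least like the rest. The 2 injected libraries were at least 2-fold apart for 37% of measured genes, whereas the 2 control libraries were for 21.8%. Injected library 2 was 2-fold apart from control libraries 1 and 2 for 22.4% and 28.6% of genes, and injected library 1 for 36.4% and 44.7%. Depth was 9145323 and 5661621 counts in the control libraries and 13233371 and 9180752 in the injected libraries. Mitochondrially encoded genes held 5.55% and 5.23% of control counts and 3.47% and 4.99% of injected counts. Without injected library 2 the counts were 1270 higher and 1853 lower, without injected library 1 they were 647 and 1097, and without control library 1 they were 1211 and 1509; a side held by 1 library is met more easily than a side held by a pair.

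The 2 control samples of the series also differed from each other. The S31A control against the MO control gave 24.2% of measured genes at least 2-fold apart with all libraries separated, against 17.7% for MO injected against MO control and 20.6% for S31A injected against S31A control. Of the genes called in the MO comparison, 313 higher and 362 lower genes also lay beyond both S31A control libraries, which is 53% and 43% of those called. Over the 4 MO libraries, edgeR's quasi-likelihood test called 0 genes at an adjusted p under 0.05, with a smallest adjusted p of 0.0644. At an unadjusted p under 0.05 the same test had 429 of 8110 genes, near the share that this limit passes where no gene differs. DESeq2 called 54 genes at an adjusted p under 0.05. Such p-values cover only how far the libraries of a single sample scatter, and that scatter may be technical.

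The labelled cell type was checked against marker genes. All 12 egg and zygote markers were measured, with summed levels of 6796 and 9459 CPM in control and 8445 and 5407 CPM in injected libraries. Of these markers 2 were called lower, Ooep and Bmp15, and 0 higher. Blood markers were near absent, with 0 of 5 measured and a summed level of 0 to 0.109 CPM. Fibroblast and epithelium markers had 0 of 7 measured, with summed levels of 2.50 and 1.97 CPM in control and 0 and 0.218 CPM in injected libraries. Of 14 cumulus and granulosa cell markers 2 were measured, 10 were at 0 in all 4 libraries, and the summed level was 71.9 and 72.8 CPM in control and 115 and 59.3 CPM in injected libraries. Their part in the results was not tested.

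Genes with the widest clear space between the groups were named by the gap, the difference in log2 CPM between the nearest injected and control libraries, among genes at 50 CPM or more. The 15 widest gaps downward were at least 2.53-fold and the 15 widest upward at least 2.16-fold. Of these, 14 of 15 lower and 11 of 15 higher genes also lay beyond both S31A control libraries. Since they were chosen for the gap, their separation is a description.

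After H3f3b, H3f3a and H3f3c, the widest gap downward was that of Cldn8, a tight junction claudin, at 92.4 and 142 CPM in control and 21.1 and 24.1 CPM in injected libraries. The Cldn8 ratio was -2.27 on the log2 scale. Ercc6l encodes a DNA translocase that works on DNA bridges in mitosis, and it was at 166 and 135 CPM against 24.0 and 37.2 CPM (log2 ratio -2.33). Med14, the backbone subunit of the Mediator complex that links transcription factors to RNA polymerase II, was at 66.9 and 56.7 CPM against 15.4 and 16.1 CPM (log2 ratio -1.94). In all 3 genes both injected libraries lay well below the lower control library. Snap29, a SNARE protein of membrane fusion, was at 75.8 and 74.1 CPM against 22.5 and 21.1 CPM (log2 ratio -1.72). Hnrnpul2, an RNA-binding protein of the hnRNP U family, was at 184 and 181 CPM against 67.6 and 67.1 CPM (log2 ratio -1.38). Acsl1, which activates long-chain fatty acids, was at 61.1 and 88.8 CPM against 8.65 and 18.4 CPM (log2 ratio -2.44, and -3.08 without injected library 2).

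Other members of this group were Caml, Zfp930, Lrrc59, Arl8a, Tdrd3 and Zfp58. Lrrc59, a ribosome-binding protein of the endoplasmic reticulum, was at 58.7 and 115 CPM in control and 20.1 and 17.7 CPM in injected libraries. Arl8a, a small GTPase of lysosome movement, was at 62.8 and 87.8 CPM against 12.2 and 22.7 CPM. Caml, a receptor for the insertion of tail-anchored proteins, was at 60.2 and 76.9 CPM against 17.2 and 4.47 CPM, and its log2 ratio of -2.42 was -3.89 without injected library 1. Zfp58 differed between its injected libraries, with 0.0766 and 28.7 CPM against 72.9 and 103 CPM in control; its log2 ratio of -2.77 was -1.59 without injected library 1, and without injected library 2 a single count remained. Zfp58 and Zfp930 belong to a large zinc finger family with similar members, so reads may be shared. Tdrd3, a Tudor domain protein that binds methylated arginine, was the 1 gene of the 15 that did not lie beyond both S31A control libraries, which had 24.3 and 47.0 CPM.

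Upward, the gap was widest for Prkab1, the beta 1 subunit of the energy sensor AMPK. It was at 34.8 and 24.2 CPM in control and 344 and 147 CPM in injected libraries. Its log2 ratio was 3.15, and 2.23 without injected library 1. The S31A control libraries had 129 and 225 CPM of Prkab1, so the injected MO libraries were not beyond all controls of the series. Ccdc117, a coiled-coil protein, was at 271 and 199 CPM against 1162 and 956 CPM (log2 ratio 2.20), and both values were above the 610 and 606 CPM of the S31A control. Cry1, a repressor of the circadian clock, was at 90.3 and 47.8 CPM against 372 and 260 CPM (log2 ratio 2.20, and 2.81 without control library 1). The S31A control libraries had 169 and 347 CPM of Cry1, which overlapped the injected MO libraries.

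Kdm3b, a demethylase of histone H3 lysine 9, was at 8.69 and 6.08 CPM in control and 64.6 and 31.3 CPM in injected libraries. Its log2 ratio was 2.77, and 1.99 without injected library 1. Snx11, a sorting nexin of endosomes, was at 11.4 and 12.3 CPM against 142 and 42.8 CPM (log2 ratio 3.14, and 1.82 without injected library 1). Tnks2, a tankyrase that adds ADP-ribose chains to proteins, was at 21.9 and 11.8 CPM against 95.8 and 52.5 CPM (log2 ratio 2.17, and 1.51 without injected library 1). In all 3 genes injected library 1 was the higher of the pair. Nipsnap2, a mitochondrial protein, was at 126 and 102 CPM against 319 and 273 CPM (log2 ratio 1.42). Foxk1, a forkhead transcription factor, was at 24.1 and 25 CPM against 70.9 and 67.0 CPM (log2 ratio 1.55). Arrdc2, an arrestin domain protein, was the most uneven: 3.80 and 3.29 CPM in control and 96.8 and 10.3 CPM in injected libraries, with a log2 ratio of 4.10 that was 1.45 without injected library 1. The S31A control libraries had 29.99 and 68.05 CPM of Arrdc2 and 79.3 and 31.8 CPM of Foxk1, which overlapped the injected MO libraries. For Arrdc2 the log2 ratio of the S31A control to the MO control was 3.80. The others were Icmt, Fam167a, Sntb2, Syngr3, Erp29 and Kantr, with log2 ratios from 1.48 to 2.05. Of these 6, all but Fam167a, at 1.37 without injected library 1, and Kantr, at 1.27 without control library 1 and 2.52 without control library 2, moved by less than 1.5 times when any library was left out.

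**Figure D2:**
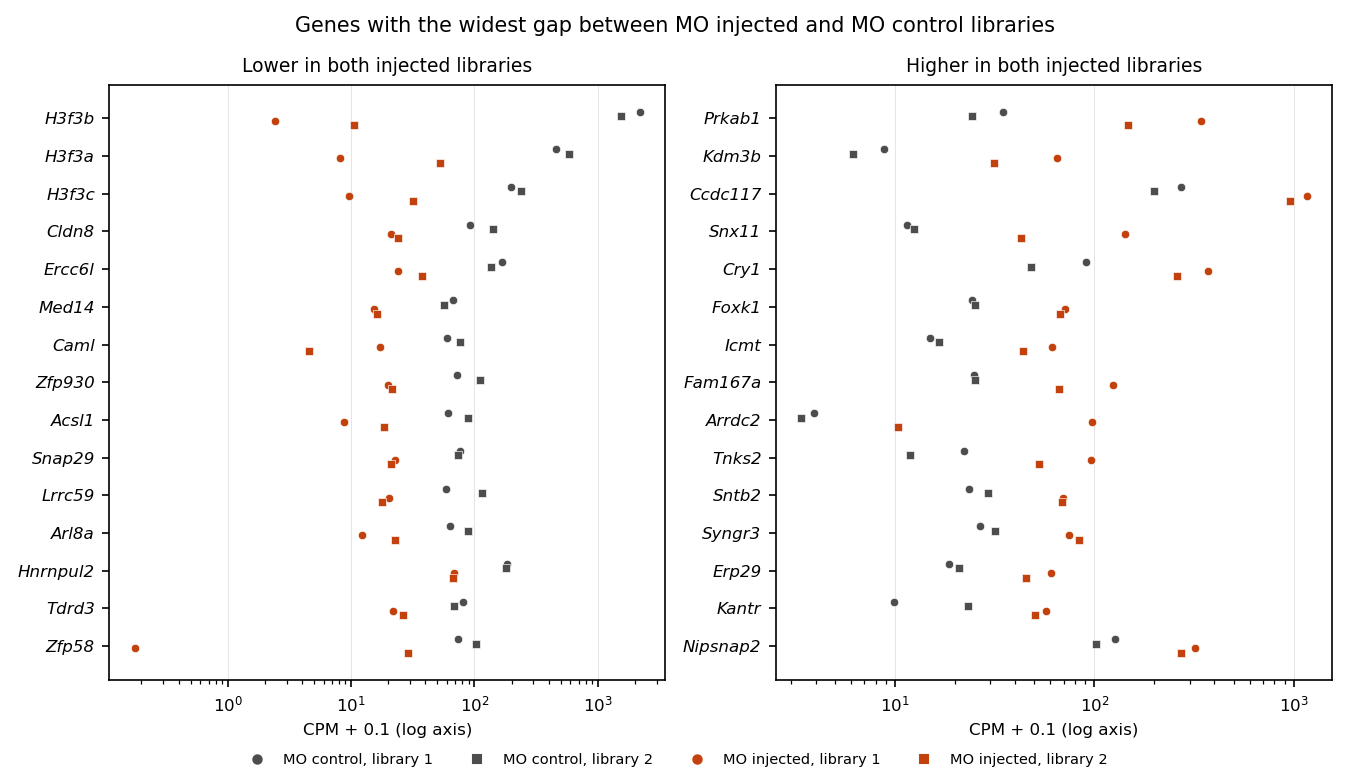
Points show the CPM (plus 0.1, log axis) of the 15 genes with the widest gap downward (left) and upward (right) in each of the 4 MO libraries; grey is control, orange is injected, circles are library 1 and squares library 2. No injected point crosses a control point, and the space is widest for H3f3b, at 1550 CPM against 10.5 CPM in its nearest libraries.

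Genes for the proteins that place H3.3 were near the background. Of 18 genes in the list of H3.3 deposition and histone chaperones 16 were measured, with 1 called higher, 1 called lower and a median log2 ratio of 0.12 against 0.03 over all measured genes. Chd1, a remodeller that acts with H3.3 deposition, was at 24.9 and 17.1 CPM in control and 3.29 and 10.3 CPM in injected libraries (log2 ratio -1.75, with -1.11 without injected library 1 and -2.72 without injected library 2). Nasp, a chaperone of free H3, was below its control in both libraries at less than 2-fold, with 283 and 511 CPM against 149 and 237 CPM. The 2 groups overlapped for Atrx, at 530 and 243 CPM against 425 and 368 CPM, and for Daxx, at 43.5 and 27.4 CPM against 31.9 and 34.5 CPM. Hira itself was below the limit of 10 CPM in both samples.

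Among other histone genes, H1f8, the linker histone of the oocyte, was called higher. It was at 1180 and 374 CPM in control and 5338 and 1214 CPM in injected libraries, so the nearest libraries almost touched. Its log2 ratio was 2.13, 0.47 without injected library 1 and 3.32 without control library 1. The S31A control libraries had 2167 and 2402 CPM of H1f8, above injected MO library 2. Of 34 measured histone lysine methylation enzymes 1 was called higher, Kdm3b, and 1 lower, the demethylase Phf2 (log2 ratio -1.83, and -0.37 without control library 1). Dnmt1, the maintenance DNA methyltransferase, was below control in both libraries at less than 2-fold, with 313 and 391 CPM against 163 and 202 CPM (log2 ratio -0.89), and 0 of 13 measured DNA methylation genes were called in either direction. Of 29 measured chromatin remodellers 1 was called lower, the SWI/SNF subunit Smarcc1 (log2 ratio -1.74, and -2.71 without injected library 1), and 0 higher. Smarcc1 was at 0 and 1.58 CPM in the S31A control, below the 6.59 and 2.62 CPM of the injected MO libraries, and against that control its log2 ratio was 2.465.

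Cell cycle genes were called in 1 direction. In the list of the cell cycle switch, anaphase-promoting complex and spindle checkpoint, 52 of 61 genes were measured, 10 (19.2%) were called lower and 0 higher. The median log2 ratio was -0.06 against 0.03 over all genes, and the middle 50% of members ran from -0.71 to 0.15 against -0.52 to 0.54. When 1 library was left out, 7 to 16 members were called lower and 0 to 4 higher. The lower share was 13.5% without control library 2, against 11.7% of all measured genes, and 17.3% against 13.4% without injected library 1. It was 26.4% against 18% without control library 1 and 30.2% against 22.3% without injected library 2. Of the 10 lower members 5 also lay beyond both S31A control libraries: Bub1, Bub3, Cdc25b, Wee1 and Zw10.

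Zw10 and Zwilch are subunits of the complex that brings dynein and checkpoint proteins to kinetochores. Zw10 was at 46.2 and 115 CPM in control and 10.7 and 27.5 CPM in injected libraries, with a log2 ratio of -2.0 that ran from -2.80 without injected library 2 to -1.33 without control library 2, and was -2.66 without control library 1. Zwilch was at 23.6 and 48.5 CPM against 10.2 and 16.4 CPM (log2 ratio -1.34, and -0.83 without control library 2). Bub1, the kinase of the spindle checkpoint, was at 31.5 and 64 CPM against 6.51 and 17.4 CPM (log2 ratio -1.95, and -2.78 without injected library 2). Its partner Bub3 was at 154 and 175 CPM against 58.0 and 101 CPM (log2 ratio -1.04, with -0.71 without injected library 1 and -0.97 without control library 2). In these 4 genes injected library 1 was lower than injected library 2, and both were below the controls. Mad2l1, the checkpoint protein that holds back Cdc20, overlapped, at 265 and 203 CPM against 278 and 264 CPM.

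The kinases and phosphatase that time entry into division were also among them. Cdk1, the kinase that drives mitosis, was at 39.9 and 80.1 CPM in control and 24.5 and 28.8 CPM in injected libraries (log2 ratio -1.03, with -0.98 without injected library 1 and -0.55 without control library 2). Cdk2 was at 24.3 and 43.1 CPM against 9.80 and 6.44 CPM (log2 ratio -1.85). Cdc25b, the phosphatase that switches Cdk1 on, was at 156 and 148 CPM against 43.7 and 91.2 CPM (log2 ratio -1.22, with -0.77 without injected library 1 and -1.84 without injected library 2). Wee1, the kinase that holds Cdk1 inactive, was at 18.1 and 23.8 CPM against 1.84 and 11.2 CPM (log2 ratio -1.77, with -0.88 without injected library 1 and -3.43 without injected library 2). Fzr1, an activator of the anaphase-promoting complex, was at 39.2 and 38.8 CPM against 14.6 and 14.9 CPM (log2 ratio -1.34). Ccnb3 rested on 1 library, with 74.9 and 64.4 CPM against 0 and 56.9 CPM, and its log2 ratio of -1.54 was -0.34 without injected library 1, while 0 counts remained without injected library 2. Several cyclin and kinase genes overlapped: Ccnb1 was at 2414 and 1414 CPM against 1351 and 2314 CPM, Ccna2 at 308 and 227 CPM against 279 and 289 CPM, and the oocyte kinase Wee2 at 861 and 956 CPM against 880 and 976 CPM.

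Of 34 measured kinesin and egg spindle genes 5 (14.7%) were called lower and 0 higher, with a median log2 ratio of -0.18. Leaving out 1 library gave 3 to 12 lower. That was 9.09% without control library 2, against 11.7% of all measured genes, and 17.1% against 22.3% without injected library 2. It was 32.4% against 18% without control library 1 and 17.6% against 13.4% without injected library 1. At any size, 10 of 34 (29.4%) had both injected libraries below both controls and 8 (23.5%) both above. The shares over all measured genes were 21.3% and 19.2%. Kif2c, a kinesin that removes tubulin from microtubule ends at centromeres, was at 22.6 and 22.7 CPM in control and 2.76 and 9.06 CPM in injected libraries (log2 ratio -2.01, with -1.34 without injected library 1 and -3.02 without injected library 2). Kif18b, a kinesin of astral microtubules, was at 11 and 14.3 CPM against 4.29 and 5.02 CPM (log2 ratio -1.35). Tacc3, which binds clathrin and holds spindle fibres together, was at 102 and 176 CPM against 31.9 and 85.1 CPM (log2 ratio -1.23, with -0.66 without injected library 1, -2.07 without injected library 2 and -0.87 without control library 2). Tacc3 was at 20 and 18.3 CPM in the S31A control, below both injected libraries, and against that control its log2 ratio was 1.49. The called members Kif21a and Tubb4b had log2 ratios of -1.78, or -2.45 without injected library 1, and -1.0, the latter -0.84 without injected library 2 and -0.53 without control library 2. Just short of 2-fold, Aurka, the kinase of spindle poles, was at 230 and 253 CPM against 91.1 and 151 CPM, and Nuf2, a kinetochore subunit, at 320 and 325 CPM against 128 and 203 CPM.

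Of 35 measured replication genes 4 (11.4%) were called lower, close to the background of 10.4%, and 0 higher. The 4 belong to complexes that load and start the replicative helicase: Gins2 and Gins4 of GINS, and Orc2 and Orc3 of the origin recognition complex. Gins2 was at 11 and 27.1 CPM in control and 2.83 and 0 CPM in injected libraries (log2 ratio -3.26, with -2.60 without injected library 2, -3.90 without control library 1 and -2.59 without control library 2; without injected library 1, 0 counts remained). Gins4 was at 20.8 and 30.7 CPM against 5.05 and 9.17 CPM (log2 ratio -1.80). Orc2 was at 52.9 and 71.7 CPM against 9.42 and 38.6 CPM, with a log2 ratio of -1.44 that was -0.67 without injected library 1 and -2.70 without injected library 2. Orc3 was at 14.9 and 15.9 CPM against 2.37 and 11.8 CPM (log2 ratio -1.23, with -0.40 without injected library 1 and -2.67 without injected library 2), and it changed sign to 0.40 against the S31A control. Of the 4 GINS subunits all had summed ratios below 0, from -3.26 to -0.60, and 3 had both injected libraries below both controls. In the origin recognition complex the subunits went both ways, with Orc5 and Orc6 above control in both libraries at less than 2-fold.

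Genes of early genome activation and the 2-cell stage are mostly silent in zygotes, and 12 of 30 were measured. Of these 3 (25%) were called lower and 0 higher, and 6 of 12 had both injected libraries below both controls against 21.3% of all genes. The median log2 ratio was -0.44, and -0.42 to -0.98 when 1 library was left out, which gave 3 to 6 called lower. Those lower calls were 25% to 50% of members, against 11.7% to 22.3% of all measured genes. Dppa2, a chromatin factor of early activation, was at 34.1 and 54.2 CPM in control and 7.96 and 21 CPM in injected libraries (log2 ratio -1.60, and -2.42 without injected library 2). Arg2, a mitochondrial arginase, was at 88.2 and 138 CPM against 26.0 and 47.7 CPM (log2 ratio -1.57). Both genes also lay below both S31A control libraries, Dppa2 only just, at 20.96 against 21.1 CPM in the nearest libraries. Duxf3, the multicopy homeobox gene Dux that activates 2-cell genes, was at 19.9 and 8.38 CPM against 0 and 6.0 CPM. Its log2 ratio of -2.53 was -1.36 without injected library 1 and -1.68 without control library 1, and 0 counts remained without injected library 2. The copies of Duxf3 may share reads, and the S31A control libraries were both at 0 CPM, below injected library 2. Klf17, at 2169 and 2097 CPM against 1907 and 1665 CPM, had both injected libraries lower by a small margin (log2 ratio -0.19). Nfya, Nr5a2, Yap1, Tcstv1, Tcstv3 and Klf4 overlapped.

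**Figure D3:**
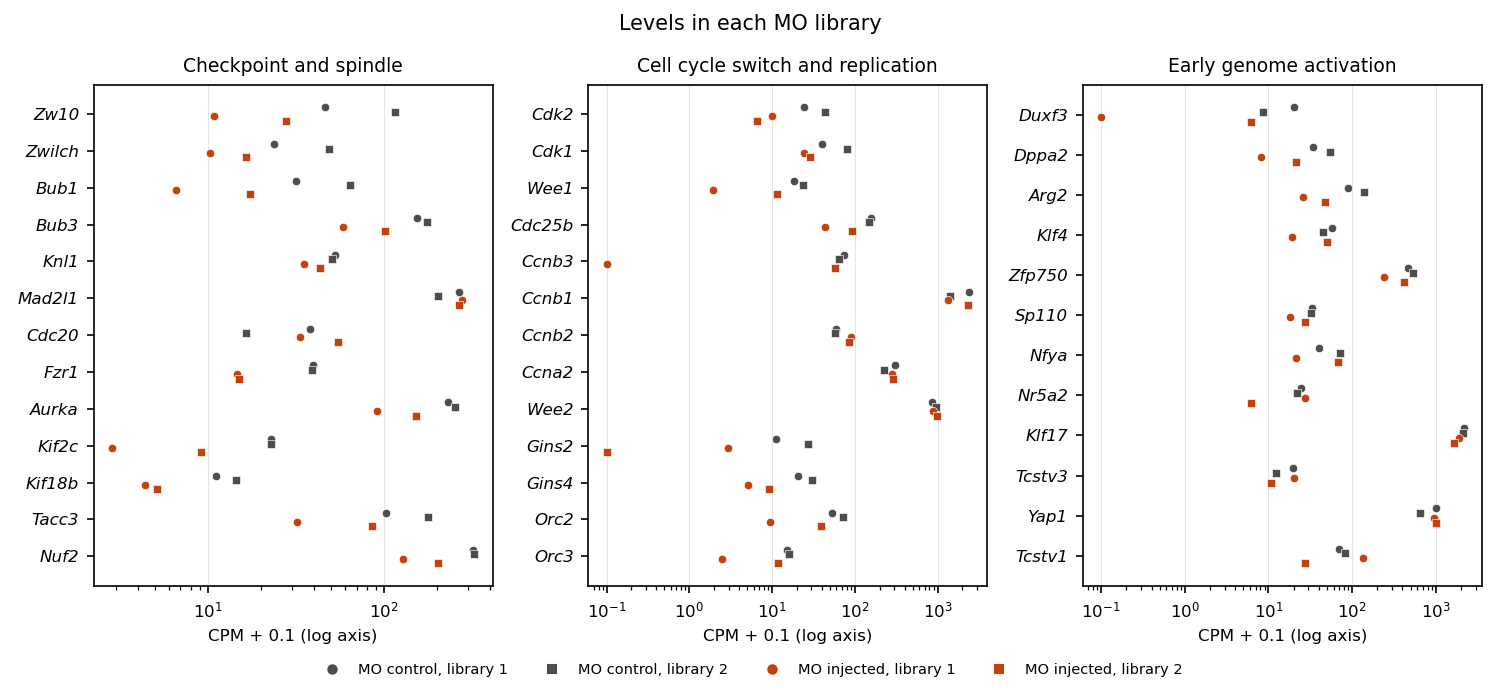
Points show the CPM (plus 0.1, log axis) of checkpoint and spindle genes, cell cycle and replication genes, and genes of early genome activation in each MO library; grey is control, orange is injected, circles are library 1 and squares library 2. The called genes lie to the left in both injected libraries, while Mad2l1, Ccnb1, Ccna2, Wee2 and Yap1 overlap; Ccnb3, Duxf3 and Gins2 each have 1 injected library at 0.

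General transcription factors went both ways, with 4 of 42 measured members called lower and 4 higher. The TFIIH subunit Ercc3, a DNA translocase that opens promoters, was at 11.4 and 13.7 CPM in control and 0 and 2.95 CPM in injected libraries (log2 ratio -3.18, and -2.05 without injected library 1, with 0 counts left without injected library 2). Gtf2h5, the smallest TFIIH subunit, was at 8.59 and 14.3 CPM against 1.07 and 3.27 CPM (log2 ratio -2.35, with -1.72 without injected library 1 and -3.24 without injected library 2). Gtf2h1 and Gtf2h3 of the same complex were above control in both libraries at less than 2-fold. Tbpl1, a relative of the TATA-binding protein, was at 6.96 and 4.27 CPM against 18.1 and 20.5 CPM (log2 ratio 1.73).

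Zinc finger genes of chromosome 7 had the highest share of lower calls among the lists with 10 or more measured members. In the list of 48 such genes, 27 were measured, 8 (29.6%) were called lower and 2 higher, with a median log2 ratio of -0.94. The list was assembled with earlier results of these data known. With all genes named Zfp, Zscan, Zkscan or Zbtb and a number, a wider set counted after seeing the values, 11 of 47 measured on chromosome 7 (23.4%) and 30 of 179 on other chromosomes (16.8%) were called lower. Zfp418 was at 15.5 and 7.56 CPM in control and had 0 counts in both injected libraries, which is at least 88.3-fold lower if 3 counts are set as the floor of the summed sample. Zfp94 was at 13 and 15.9 CPM against 0 and 0.328 CPM. The S31A control libraries had 26.4 and 0 CPM of Zfp418 and 0 and 0 CPM of Zfp94, and of the 8 lower members only Zfp74, at 51.1 and 39.5 CPM against 17.0 and 17.0 CPM, was also below both of them. The 2 higher members lay above all 4 control libraries, among them Zfp606, at 0 and 8.06 CPM in MO control and 31.9 and 22.1 CPM in injected libraries. By that rule 3.7% of members were called lower and 7.41% higher, against 4.46% and 3.86% of all measured genes. Leaving out 1 library gave 7 to 17 members called lower, the most without injected library 2. Those lower calls were 28% to 63% of members, against 11.7% to 22.3% of all measured genes.

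Genes of mRNA removal, which in the zygote clear the maternal store, had 5 of 33 measured members (15.2%) called lower and 1 higher, with a median log2 ratio of -0.05. Cnot1, the scaffold of the CCR4-NOT deadenylase, was at 31 and 40.8 CPM in control and 10.6 and 6.33 CPM in injected libraries (log2 ratio -1.92). Parn, a poly(A) ribonuclease, was at 37.2 and 65.6 CPM against 15.8 and 19.2 CPM (log2 ratio -1.44). Mettl14, a subunit of the m6A writer, was at 15.3 and 21 CPM against 0 and 5.57 CPM (log2 ratio -2.83, and -1.67 without injected library 1, with 0 counts left without injected library 2), and against the S31A control, at 0.0934 and 3.08 CPM, its log2 ratio was 0.47. Against these, the decapping cofactor Dcp1a was at 350 and 365 CPM against 1085 and 624 CPM (log2 ratio 1.38, and 0.78 without injected library 1). The injected libraries of Dcp1a did not lie beyond the S31A control, which had 553 and 784 CPM.

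Chaperones were more often lower than higher. Of 27 measured heat shock factors and chaperones 4 (14.8%) were called lower and 1 higher, and 10 (37%) had both injected libraries below both controls, with a median log2 ratio of -0.39. Cct5, a subunit of the chaperonin ring that folds actin and tubulin, was at 62.0 and 22.2 CPM in control and 16.3 and 12.3 CPM in injected libraries (log2 ratio -1.59, and -0.55 without control library 1). Its partner Tcp1 was at 7.61 and 15.8 CPM against 3.60 and 5.02 CPM (log2 ratio -1.30, and -0.80 without control library 2). Of the 7 measured subunits of this ring 4 had both injected libraries below both controls and 0 had both above, with a median log2 ratio of -0.70; this grouping was made after the values were seen. Dnaja1, a co-chaperone of Hsp70, was at 141 and 116 CPM against 35.5 and 71.6 CPM (log2 ratio -1.32, with -0.90 without injected library 1 and -1.91 without injected library 2). It overlapped the S31A control, at 96.0 and 57.2 CPM. The 1 member called higher, Hspb1, was at 3.15 and 0.493 CPM against 16.6 and 5.89 CPM (log2 ratio 2.54, and 1.41 without injected library 1). Beyond all 4 control libraries, 2 members (7.41%) were called lower and 1 (3.7%) higher, against 4.46% and 3.86% of all measured genes.

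Translation genes differed by gene. Eif5b, which joins the ribosomal subunits, was at 424 and 419 CPM in control and 989 and 760 CPM in injected libraries (log2 ratio 1.14, and 0.82 without injected library 1). Eif2b1, of the exchange factor of eIF2, was at 542 and 382 CPM against 1179 and 952 CPM (log2 ratio 1.24, and 0.96 without injected library 1). Eef1a1, the elongation factor that delivers tRNA, was lower, at 93.8 and 191 CPM against 8.50 and 83.4 CPM; its log2 ratio of -1.69 was -0.69 without injected library 1 and -3.98 without injected library 2. All 3 lay beyond both S31A control libraries. For Eif5b the 2 controls differed by more than the MO comparison. The S31A control libraries had 144.5 and 138 CPM, with a log2 ratio of the S31A control to the MO control of -1.52. Of 78 cytosolic ribosomal protein genes 12 were measured, with 4 called higher (33.3%) and 1 lower. The 4 were Rpl22, Rpl27a, Rplp1 and Rps2, 0 of them lay beyond the S31A control, and without injected library 1 the list had 0 called higher. Many ribosomal protein genes have processed copies, so their reads are uncertain.

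**Figure D4:**
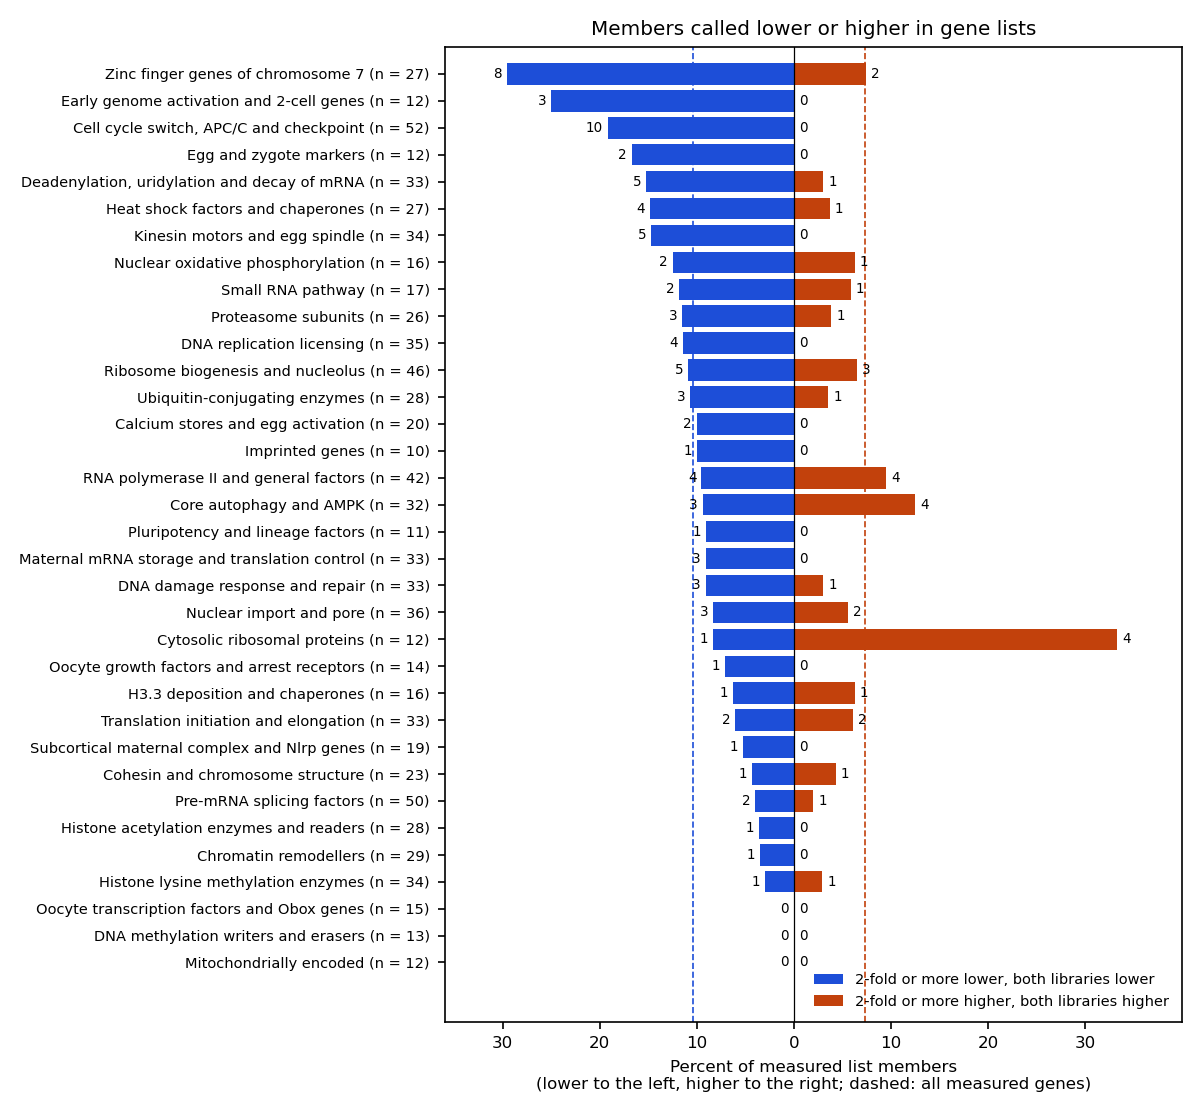
Bars show, for each gene list with 10 or more measured members (n), the percent of members called lower (blue, to the left) and higher (orange, to the right), with the number of genes at the end of each bar; dashed lines mark 10.4% lower and 7.29% higher over all measured genes. The cell cycle list has 10 lower and 0 higher members, and the ribosomal protein list 4 higher and 1 lower.

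Energy sensing and autophagy genes also went both ways, with 4 of 32 measured members called higher (12.5%) and 3 lower. The AMPK subunits Prkab1 and Prkaa2 lay on opposite sides. Prkaa2, the alpha 2 catalytic subunit, was at 26.1 and 40.6 CPM in control and 0 and 3.27 CPM in injected libraries (log2 ratio -4.41, and -3.26 without injected library 1, with 0 counts left without injected library 2). Becn1, a subunit of the lipid kinase complex that starts autophagosomes, was at 24.4 and 31.4 CPM against 49.7 and 62.1 CPM (log2 ratio 1.06, with 0.83 without injected library 2 and 0.84 without control library 1). Its partner Atg14 was at 74.5 and 69.9 CPM against 158 and 118 CPM (log2 ratio 1.01, with 0.67 without injected library 1 and 0.97 without control library 2). The catalytic subunit of that complex, Pik3c3, was lower, at 22.5 and 45.4 CPM against 10.03 and 14.4 CPM (log2 ratio -1.36, and -0.87 without control library 2). Mtor, the growth kinase, was at 12.4 and 15.1 CPM against 55.6 and 21.3 CPM (log2 ratio 1.67, and 0.63 without injected library 1).

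In protein turnover, 3 of 28 measured ubiquitin-conjugating enzymes were called lower and 1 higher. At any size, 10 (35.7%) had both injected libraries above both controls and 4 (14.3%) both below, with a median log2 ratio of 0.31. Over all measured genes these shares were 19.2% and 21.3%, and the median was 0.03. Ube2w, which attaches ubiquitin to N termini, was at 301 and 484 CPM in control and 60.7 and 123 CPM in injected libraries (log2 ratio -2.06, and -2.65 without injected library 2). The S31A control libraries had 106 and 131 CPM of Ube2w, between which the higher injected MO library fell. Ube2t, the enzyme of the Fanconi anaemia pathway, was at 78.0 and 107 CPM against 12.5 and 34.6 CPM (log2 ratio -1.99, with -1.40 without injected library 1 and -2.87 without injected library 2). Of 26 measured proteasome subunits 3 were called lower and 1 higher, near the background. Psmd10, a chaperone of the proteasome cap, was at 23.0 and 51.1 CPM against 0.383 and 4.04 CPM (log2 ratio -4.06, with -3.07 without injected library 1 and -6.14 without injected library 2). The S31A control libraries had 3.36 and 13.1 CPM of Psmd10, which overlapped the injected MO libraries.

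Genes of nuclear import and the pore were near the background. Of 36 measured members 3 (8.33%) were called lower, against 10.4% of all measured genes, and 2 higher. The 3 lower members were Kpnb1, Kpna2 and Cse1l, which encode importin beta, an importin alpha and the exporter that returns importin alpha. Kpnb1 was at 100.5 and 144 CPM in control and 31.3 and 78.7 CPM in injected libraries (log2 ratio -1.16, and -1.94 without injected library 2). It was under 2-fold at -0.61 without injected library 1 and -0.93 without control library 2. Cse1l was at 54.3 and 38.0 CPM against 9.19 and 19.8 CPM (log2 ratio -1.76, and -2.40 without injected library 2). Kpna2 was at 49.99 and 59.7 CPM against 7.05 and 33.6 CPM, with a log2 ratio of -1.52 that was -0.71 without injected library 1 and -2.95 without injected library 2. Kpna2 was at 7.66 and 9.23 CPM in the S31A control, and against that control its log2 ratio changed sign to 1.08. Of 17 measured nucleoporins 0 were called lower and 1 higher.

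Among proteins made by the egg, Bmp15, an oocyte growth factor, was at 3461 and 5591 CPM in control and 1293 and 2800 CPM in injected libraries (log2 ratio -1.12, and -1.77 without injected library 2), below both S31A control libraries as well. The Bmp15 ratio was under 2-fold at -0.65 without injected library 1 and -0.80 without control library 2. Ooep, of the subcortical maternal complex, was at 236 and 750 CPM against 133 and 220 CPM, with a log2 ratio of -1.33 that was -2.12 without control library 1 and -0.43 without control library 2. The S31A control libraries had 229.7 and 218.7 CPM of Ooep, which overlapped the injected MO libraries. Zbed3, also of the subcortical maternal complex, was above control in both libraries at less than 2-fold, at 7810 and 5093 CPM against 11350 and 10380 CPM. Oosp2, an oocyte-secreted protein, was at 63.2 and 122 CPM against 28.2 and 28.9 CPM (log2 ratio -1.54). Astl, which encodes ovastacin, a protease acting on the egg coat at fertilisation, was at 20 and 29.3 CPM against 143 and 40.7 CPM (log2 ratio 2.14, and 0.75 without injected library 1). Its injected MO libraries overlapped the S31A control, at 100.9 and 30.9 CPM. Stella, encoded by Dppa3, had close values, at 1033 and 1017 CPM against 947 and 884 CPM. Gab1, a signalling adaptor in the list of imprinted genes, was at 22.6 and 14.0 CPM in control and had 0 counts in both injected libraries, which is at least 137-fold lower with the same floor of 3 counts. Gab1 was at 16.3 and 9.23 CPM in the S31A control.

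The genes called in the MO comparison were set beside the S31A experiment, which has its own control and shares no sample with it. Of the 842 lower genes, 128 (15.2%) were also called lower with S31A injection and 74 (8.79%) higher, where 10.5% and 8.31% of all measured genes were. Of the 591 higher genes, 69 (11.7%) were called higher with S31A and 59 (9.98%) lower. These S31A calls used the same rule on ratio and side but no limit of 10 CPM in the S31A samples. That limit was reached there by 703 of the 842 lower, 472 of the 591 higher and 7320 of all 8110 measured genes. Caml, Lrrc59, Zfp58 and Rpl29 were on the lower side in both experiments, with S31A log2 ratios of -1.37, -2.89, -0.98 and -1.33. Icmt, Fam167a and Tnks2 were on the higher side in both, with S31A log2 ratios of 1.90, 1.98 and 1.80. Others, H3f3a, Ercc6l, Cldn8, Snap29, Hnrnpul2, Bub1 and Zw10 among them, overlapped between S31A injected and S31A control libraries.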

How the data were processed

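FastQC, featureCounts, Bowtie2 and DESeq2 and the build mm10 are named in the submitters' processing notes. Their versions, the annotation, the strand setting and how reads that match several places were counted are not given in the sources used here, which leaves overlapping genes and copies uncertain. What the authors deposited are whole-number counts for each gene, not normalized. Gene lengths, another number in the file, were used as the authors deposited them. GENCODE M21 held 96.4% of the symbols, 95.7% with the same coordinates.

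The 2 libraries of a sample were added up. TMM factors from edgeR (edgeR 4.0.16, R 4.3.3) were fitted over the 4 sums for ratios, with a prior count of 2, and over the single libraries for values per library. Measured genes had 10 CPM in either MO sample. Intervals are exact 95% Clopper-Pearson intervals and cover counting error only, as do floors of 3 counts; PCR copies were not marked. Chi-square per degree of freedom was 51.5 between control libraries and 130.4 between injected libraries, so neither pair was 1 library deposited again. The number of per-sample columns left out was 0. edgeR's quasi-likelihood test and DESeq2 1.42.0, with Benjamini-Hochberg adjustment, were run over the 4 MO libraries. The steps were tested on simulated data.

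The members, gene lists and tests were chosen with earlier results of these data known. There were 40 gene lists. Named genes were H3f3a and H3f3b, the 15 widest gaps each way at 50 CPM or more without predicted, clone or pseudogene names (H3f3c has an ordinary symbol and stayed in), and up to 4 separated members per list by size of ratio. Other list members named, the sub-complexes (GINS, TFIIH, nucleoporins, the chaperonin ring) and the zinc finger set were chosen after their values were seen. Alternatives changed scaling, filter, prior count, fold, control and libraries.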

Additional observations from a re-analysis of the deposited data

Results flagged for a closer look

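For 10 of the named genes the MO and the S31A comparison went opposite ways, each by 2-fold or more and with both injected libraries beyond both of their own controls. The values below are the S31A log2 ratio minus the MO log2 ratio, and this difference was not tested. It was positive, meaning lower with the MO and higher with S31A, for Gab1 (9.01), Duxf3 (7.96), Med14 (3.84), Hspa2 (3.63), Kif2c (3.18), Parn (2.47) and Stim2 (2.45). It was negative, meaning higher with the MO and lower with S31A, for Ube2r2 (-7.48), Astl (-3.3) and Foxk1 (-2.86). The sizes for Gab1, with 0 counts in both MO injected libraries, and Duxf3, with 0 counts in both S31A control libraries, are set by the prior count and show only the direction. Duxf3 and Ube2r2 were below 10 CPM in both S31A samples and so not measured there. The MO log2 ratio of Ube2r2 was 0.97 without control library 1 and 4.42 without control library 2. The 2 controls also differed by 2-fold or more for Duxf3 and for 4 further genes: the log2 ratio of the S31A control to the MO control was 1.503 for Astl, 1.22 for Foxk1, -1.05 for Med14 and -1.12 for Stim2.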

How the results depend on the processing

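The counts of genes called higher and lower, 591 and 842, stayed within 1.5 times under TMM without H3.3 genes, DESeq2 size factors and prior counts of 0.5 and 5. Scaling by total counts gave 458 and 1012 and moved the median of all genes from 0.03 to -0.09, so the split of calls depends on the scaling. A filter of 1 CPM gave 1042 and 2111, no filter 1164 and 2447, and 50 CPM 229 and 247. A 4-fold limit gave 135 and 212, any size 1559 and 1728, and a place beyond all 4 control libraries 313 and 362. The S31A control in place of the MO control gave 1221 higher. Leaving out 1 library gave 647 to 1270 higher and 943 to 1853 lower. edgeR called 0 genes, 3 at 50 CPM, 39 without a filter and 0 to 700 when 1 library was left out, the lone library being assumed to vary like the other group; DESeq2 called 54. The replicate block over library numbers gave 0; same-numbered libraries had correlated deviations of r = 0.088 over 2 pairs, which does not settle whether the numbers pair them. With the S31A control in place of the MO control, 17 of the named genes called higher or lower changed sign: Duxf3 4.71, Heatr1 3.28, Smarcc1 2.465, Tacc3 1.49, Zfp940 1.25, Zfp94 1.24, Kpna2 1.078, Noc3l 0.95, Atg10 0.68, Mettl14 0.47, Orc3 0.40, Stim2 0.068, Xrcc6 0.045, Trp53bp1 -0.032, Rbbp4 -0.36, Snrpa1 -0.44 and Ndufb6 -0.48. The cause was not tested. Of the other values of named genes, 1395 moved by no more than the gene's pooled standard deviation between the 2 libraries of a group, and 233 by more. These include named genes that were not called, whose changes of sign were not counted. That measure is wider for genes whose libraries differ more. Depth limits the genes near 10 CPM most.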

Other observations

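Of the features left out by the rule on names, Gm23935, a 57-base feature annotated as a miRNA gene in GENCODE M21, was at 44.0 and 32.2 CPM in MO control and 743 and 744 CPM in MO injected libraries, with a log2 ratio of 4.29. The S31A control libraries differed between themselves for Gm23935, at 23.1 and 444 CPM. Gm37486, a processed pseudogene, was at 116 and 155 CPM in MO control and 0.0766 and 0.328 CPM in MO injected libraries, with a log2 ratio of -8.83, and it was higher with S31A injection (log2 ratio 6.24). Gm37486 was set aside as a copy, with the H3.3 genes, in the TMM setting without H3.3 genes. Its sequence was not compared with theirs, and it may hold reads shared with them. Gm6485, set aside in the same way, and H3f3a-ps2 were among the genes that DESeq2 called. Gm23935 and Gm37486 had the smallest adjusted p of edgeR's quasi-likelihood test, 0.0644. They were chosen after their values were seen.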
